A study of Mus musculus with 6 samples.

Results

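The RNA profile of the newborn wild type mouse lens was described from 3 Affymetrix arrays, each made from the 2 lenses of 1 mouse at postnatal day 1. The mice were wild type on the NMRI background. The other 3 arrays, of Pax6 lacZ/+ heterozygotes of the same age, were not used here, and no comparison is made with them. Lens RNA was amplified and labeled with biotin by the NuGEN Ovation system before hybridization. Of 6 arrays in the series the 3 wild type arrays are described, and of 22626 probe sets other than the manufacturer's controls, 20380 carry a single gene symbol. The probe set of highest mean log2 signal over these mice stood for each gene, which left 12393 genes. The mice are called mouse 1, mouse 2 and mouse 3 after the replicate numbers of the labels. The RNA is of the whole lens, so that epithelium and fibers were read together. A signal is the deposited intensity on a linear scale in arbitrary units. It depends on the probes as well as on the RNA, so that a rank given here is a rank of signal and not of transcript number.

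The lens is a transparent tissue without vessels or nerves of its own. A single anterior layer of epithelial cells divides and feeds cells to the equator, where they withdraw from the cell cycle, elongate into fiber cells, fill with crystallins and lose their nuclei and organelles. A thick basement membrane, the capsule, encloses the tissue, and in the newborn mouse a transient net of vessels, the tunica vasculosa lentis, still lies on its surface. Alpha-crystallins are small heat shock proteins, and beta- and gamma-crystallins are structural proteins of a common family that give the fiber cytoplasm its refractive index.

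All 4 genes chosen as markers of lens were bright in every mouse. Crybb1, a beta-crystallin of fiber cells, had signals of 16153, 16264 and 15917 in mice 1, 2 and 3. Cryaa, the lens-restricted alpha-crystallin, gave 12511, 15674 and 13556. Crygn, the gamma-N-crystallin, gave 8659, 9853 and 8747. Mip, the water channel aquaporin 0 of fiber cell membranes, gave 5601, 6782 and 7961. They ranked 2nd, 5th, 30th and 70th of 12393 genes.

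Signals spanned more than 3 orders of magnitude, from 7.22 to 16459 as means of 3 mice, with a median of 33.7. To place the low end, 66 genes of olfactory, vomeronasal and taste receptors, which a lens is not known to use, were taken as a guide to background. Their mean signals ran from 7.75 to 21.1 with a median of 10.3, and their 95th percentile of 13.1 served as the background bound. Above it lay 8366 genes (67.5% of all). A mean signal above 100 was reached by 4549 genes (36.7%), and one above 1000 by 1193 genes. The share of each gene list above 100 is to be read beside that 36.7%. With each mouse left out in turn, the number above 100 was 4517 to 4581.

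The upper end of the signals was flat. Cryba1, which ranked 1st, was 1.71 times as bright as Rpl38 at rank 25 and 2.87 times as bright as Rps14 at rank 100. The 100 brightest genes held 18.6% ± 0.67 (SD, n = 3) of the summed signal of all genes, the 500 brightest 47.5% ± 0.563 and the 1000 brightest 64.8% ± 0.473. Signals need not rise in proportion to transcript number, so neither the flatness nor these shares describe transcript numbers. The curve then fell steeply beyond rank 1000, as the plot of signal against rank shows.

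**Figure D1:**
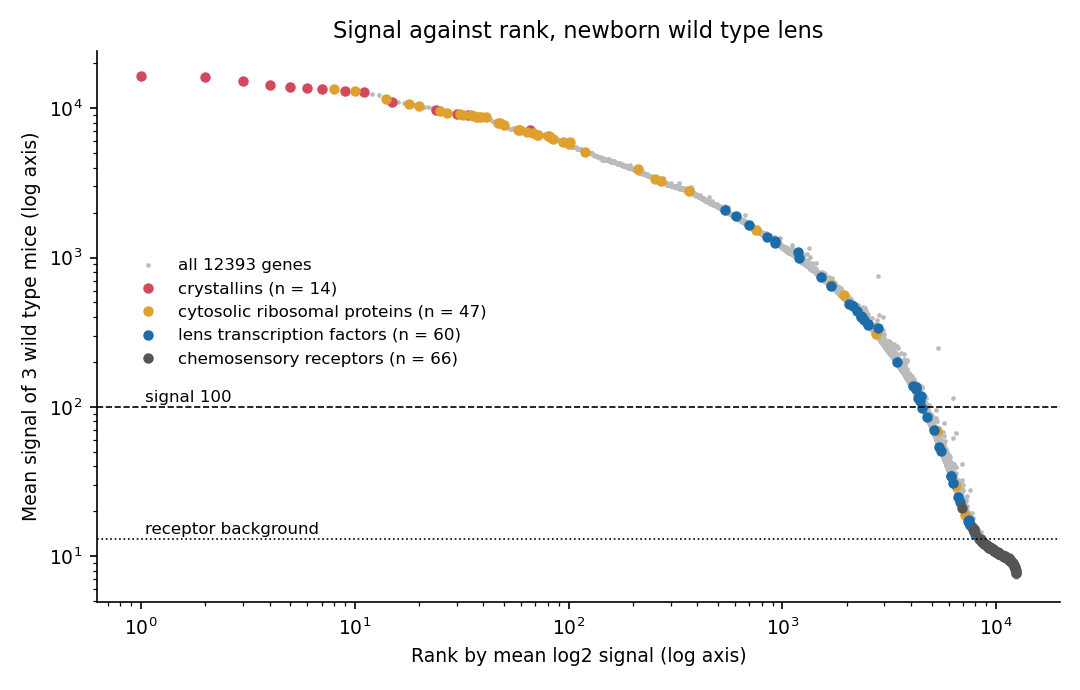
Mean signal over 3 wild type mice (log axis) against the rank of each gene (log axis), for all 12393 genes and for 4 gene lists in color; the dashed line is a signal of 100 and the dotted line the receptor background of 13.1. All 14 crystallins lie within the first 100 ranks, the lens transcription factors begin at rank 538, and the receptor genes sit at the right end.

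The 3 mice were alike in the order of their genes, and mouse 2 stood somewhat apart. Over the 12393 genes, which are not independent replicates, Pearson correlations of log2 signals were 0.980 between mice 1 and 2, 0.987 between mice 1 and 3 and 0.982 between mice 2 and 3. Of the 4549 genes above 100, mouse 2 was more than 2-fold higher than both others for 112 genes and more than 2-fold lower for 79. The same counts were 54 and 9 for mouse 1 and 3 and 11 for mouse 3. The bound of 100 is on the mean of 3 mice, so a gene could pass it through 1 high mouse alone. Over all 12393 genes, without that bound, 864 genes differed by more than 2-fold between mice 1 and 2. The same number was 339 between mice 1 and 3 and 744 between mice 2 and 3. The control probe sets of Actb, read near the 3′ and the 5′ end of its transcript as a sign of RNA quality, gave 3′/5′ ratios of 3.14, 2.11 and 3.17 in mice 1, 2 and 3, and those of Gapdh 1.67, 1.49 and 1.56. Mouse 2 thus had the lowest ratio for both genes, and the part of this in the 112 and 79 genes was not tested.

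The crystallins filled the top of the list. Of 16 crystallin genes looked for, 14 had a probe set of their own, and the 14 took ranks 1 to 7 and 9, 11, 15, 24, 30, 34 and 66. The 11 brightest of them were among the 25 brightest genes (10 or 11 with a mouse left out). Their median signal was 13193, beside 33.7 over all genes, and the brightest was 2.31 times as bright as the dimmest. Together they held 3.81% ± 0.334 of the summed signal, although they are 0.113% of the genes. This is a share of signal and not of transcripts.

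Among the beta-crystallins, Cryba1 had signals of 15447, 16399 and 17531 and Cryba2 of 14357, 16179 and 15204. Crybb3 followed with 13272, 15207 and 14293, and Cryba4 with 11698, 13846 and 12655. Crybb1 had the least relative spread of these, with an SD of 0.02 on the log2 scale. Crybb2, a crystallin whose level rises after birth, was the dimmest crystallin and the only one whose mice differed by almost 2-fold, at 5363, 10318 and 5726. Its values in mice 1 and 3 lay below those of every other crystallin on the same arrays, while in mouse 2 it ranked 22nd.

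Both alpha-crystallins were close to each other, with means of 13914 ± 1612 (SD, n = 3) for Cryaa and 13387 ± 1296 for Cryab, which is also a stress protein of muscle and brain. On the same arrays Cryaa was somewhat brighter in each mouse, with 12511, 15674 and 13556 against 12030, 14610 and 13521. Another Cryab probe set had a mean of 5427, so this order holds for the brightest probe sets only. The gamma-crystallins, which are proteins of differentiated fibers, had a median of 10359. Crygd had signals of 11743, 14414 and 12840, Crygs, the gamma-crystallin of later fibers, 9866, 12102 and 10941, Crygb 8517, 10520 and 10209, and Crygf 7485, 9306 and 10291. Cryga stood out by its lack of spread: it was listed at 13633 in all 3 mice, with an SD of 0.27. No other gene among the 25 brightest had an SD of 0.00 on the log2 scale. Crybb1 was higher in each mouse, at 16153, 16264 and 15917, so 13633 was not the highest signal of any of these arrays. Why Cryga read the same in each mouse was not tested, so its rank and its place in counts by mouse are uncertain. Gamma-crystallin genes are close copies of one another, so that probes can read more than 1 of them. A probe set that the annotation assigns to both Crygb and Crygc had signals of 14023, 15928 and 16072, and it was not used for either gene.

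The crystallins moved together between the mice. Mouse 2 had the highest signal for 12 of the 14 and mouse 1 the lowest for 13, Cryga counted by differences under 1 unit. The summed crystallin signal was 160731, 188326 and 175065, or 3.54%, 4.18% and 3.7% of all signal in mice 1, 2 and 3. Over all genes above background, mouse 2 was highest for 34.6%. The median crystallin deviated by -0.13, 0.12 and 0.00 from its mean on the log2 scale, against 0.00, -0.04 and 0.01 for all genes above background. Mouse 2 also had the lowest 3′/5′ ratios, at 2.11 for Actb against 3.14 and 3.17, and the part of RNA quality in this difference was not tested.

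**Figure D2:**
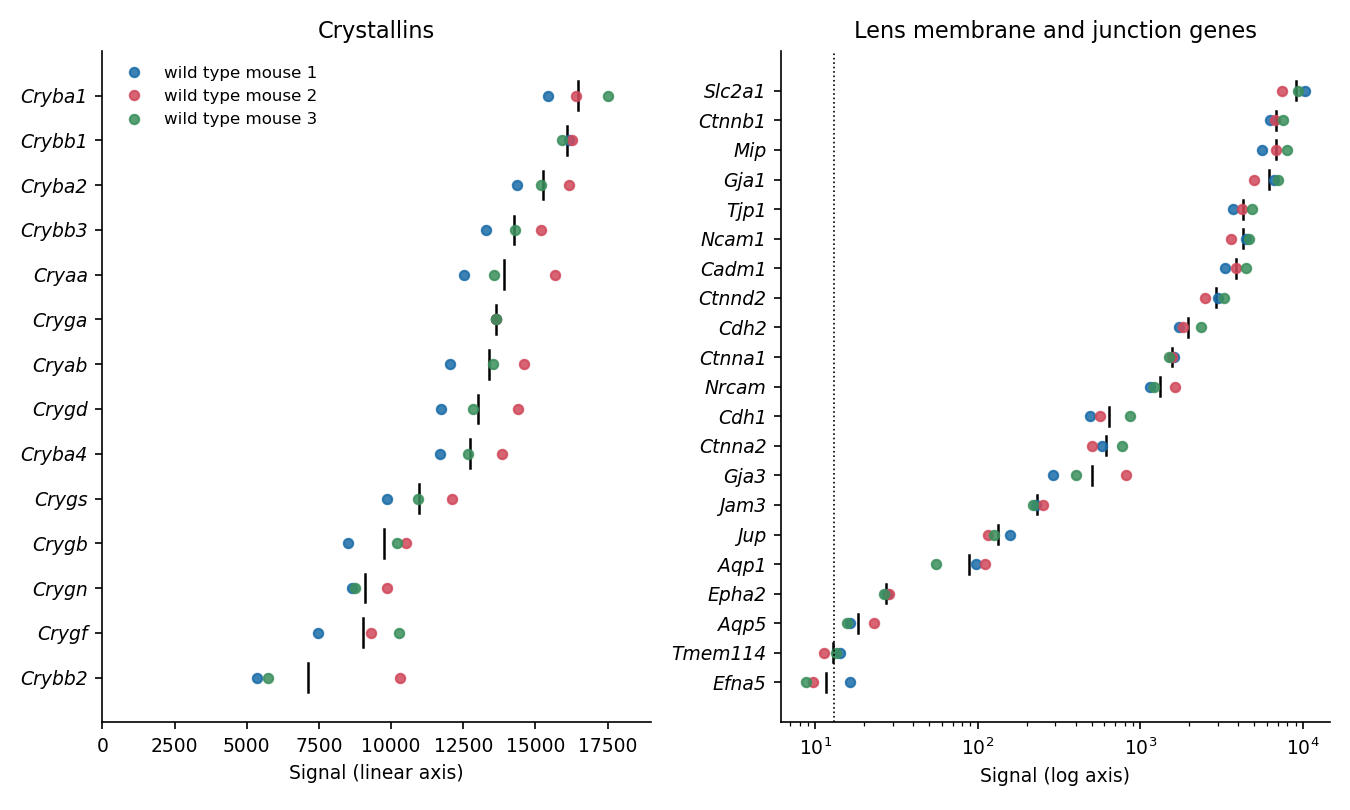
Signals of the 14 measured crystallins (left, linear axis) and of the 21 measured lens membrane and junction genes (right, log axis) in each wild type mouse; points are mice, bars are means and the dotted line is the receptor background of 13.1. Crystallins lie between 5363 and 17531, with mouse 1 to the left of mouse 2 throughout except Cryga, where the points coincide at 13633, while the membrane genes run from Slc2a1 at 9034 down to the background.

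The promoters of 9 crystallins are shown here, picked because they hold TATAAA or TATATA, letters that the ranking did not use. Cryba2, Crybb3, Cryba4 and Crybb2 hold neither and are not shown. The RefSeq promoter table (GRCm38.p6) held 13 of the 14 crystallins and 9882 of the 12393 genes. Each line gives the 60 bases before the annotated start, 5′ to 3′ on the strand of the gene, with the first TATAAA or TATATA in capitals. Its first base lies between positions -39 and -23 from the start.
Cryba1, chr11:77725294-77725353, minus strand: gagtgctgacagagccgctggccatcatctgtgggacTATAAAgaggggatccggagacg
Crybb1, chr5:112255760-112255819, plus strand: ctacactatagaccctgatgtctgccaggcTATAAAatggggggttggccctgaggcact
Crygs, chr16:22811411-22811470, minus strand: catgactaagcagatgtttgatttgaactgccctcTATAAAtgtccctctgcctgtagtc
Cryaa, chr17:31677871-31677930, plus strand: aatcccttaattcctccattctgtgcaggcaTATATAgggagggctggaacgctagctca
Cryga, chr1:65103364-65103423, minus strand: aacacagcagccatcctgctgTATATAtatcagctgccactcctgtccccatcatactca
Crygb, chr1:65082291-65082350, minus strand: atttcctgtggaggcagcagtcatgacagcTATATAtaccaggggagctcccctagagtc
Crygd, chr1:65063441-65063500, minus strand: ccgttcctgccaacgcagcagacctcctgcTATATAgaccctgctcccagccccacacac
Crygf, chr1:65926462-65926521, plus strand: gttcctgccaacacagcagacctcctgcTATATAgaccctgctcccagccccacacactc
Crygn, chr5:24757849-24757908, minus strand: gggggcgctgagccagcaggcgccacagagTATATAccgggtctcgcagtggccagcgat

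The TATA box is a core promoter element that binds the TATA-binding protein and lies about 30 bases before the start of many strongly and tissue-specifically transcribed genes. TATAAA on the strand of the gene, searched in the 45 to 15 bases before the start, was found in 3 of 13 crystallin promoters (23.1%) and in 286 of 9882 promoters of all genes (2.89%). After the crystallin promoters had been read, TATATA, which can overlap TATAAA, was added to the search. One or the other was then present in 9 of 13 crystallins (69.2%) and in 382 of all promoters (3.87%). The 4 without either were Cryba2, Crybb3, Cryba4 and Crybb2. Crygd and Crygf, copies of one another, share most of the letters shown, so the 9 promoters are not 9 independent cases.

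Over all genes, these letters were not most frequent at high signal. TATAAA or TATATA was present in 3.3% of the promoters of genes above 1000, in 1.27% of those from 100 to 1000, in 1.7% of those from background to 100 and in 8.54% of those at or below background. Among the 100 brightest genes other than crystallins it was 6.94% of 72 promoters. Crystallin promoters were also poor in CpG, the dinucleotide that clusters at the starts of broadly used genes. The ratio of observed to expected CpG in the 250 bases before the start had a median of 0.21 for crystallins, 0.84 for the other genes among the 100 brightest and 0.67 for all. Within promoters of a ratio under 0.5, TATAAA or TATATA was found in 8 of 12 crystallins (66.7%), in 5.97% of other genes above 1000 and in 8.27% of all 3410. TGCTGAC, the core letters of the site that large Maf factors bind, was present on either strand of those 250 bases in 5 crystallins (38.5%), namely Cryba1, Crybb1, Cryaa, Cryga and Cryba4, and in 3.43% of all promoters. A match is a description of letters and no evidence of binding.

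Ribosomal proteins were the class with most genes in the top ranks after the crystallins among the first 25, and with most genes among the first 100. The 47 measured genes of cytosolic ribosomal proteins had a median signal of 6636, 40 of them (85.1%) were above 100, and 30 were among the 100 brightest genes. They held 6.08% ± 0.568 of the summed signal, more than the crystallins, an order that turned with the kind of probe set used. The brightest were Rpl35 with 13946, 13952 and 12199, Rpl41 with 13548, 14397 and 10948, and Rpl7a with 11438, 11337 and 11610. Rpl13a, Rplp2 and Rpl38 were also within the first 25. At the other end Rpl12, Rps27, Rpl39 and Rpl37 had mean signals of 29.5, 18.9, 14.9 and 12. Those low values belong to probe sets that carry a single gene symbol. The annotation assigns 102 more probe sets to several genes of which at least 1 is a ribosomal protein gene, and 76 of these had a mean signal above 1000.

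These ribosomal counts rested on the kind of probe set. Probe sets with the suffix _x_at, _s_at or _a_at hold probes that may read related sequences or several transcripts. They stood for 67 of the 100 brightest genes and for 26% of all genes. Without them, 6 ribosomal protein genes were among the 100 brightest and their share of the summed signal was 1.61%. The crystallin share was then 4.88%, and 3 of the 14 crystallins have such a probe set as their brightest.

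Among translation factors, 45 of 58 (77.6%) were above 100, with a median of 1075. Eef1a1, which brings aminoacyl-tRNA to the ribosome, led with 10109, 10237 and 11057. Tpt1, the translationally controlled tumor protein, had a mean of 7752 ± 657 and Eef1b2, the exchange factor of Eef1a1, 7205 ± 814.

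Of the remaining genes of the first 25, 5 fell in none of the classes. Mrfap1, a protein named for its association with the mortality factor family of chromatin proteins, had signals of 12000, 11657 and 13803 and Ywhae, a 14-3-3 adaptor protein, 12691, 11582 and 12713. Cd24a, a small glycosylated surface protein, had 10224, 11309 and 10845. The nucleosome assembly proteins Nap1l4 and Nap1l1, which chaperone histones, had means of 10235 ± 880 and 10074 ± 699. Sod1, the cytosolic superoxide dismutase, and Cox7a2, a subunit of cytochrome c oxidase, completed the first 25 with means of 10986 ± 1655 and 10119 ± 752.

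The makeup of the list changed quickly with rank. Crystallins were 44% of ranks 1 to 25 and ribosomal proteins 24%, with 20% of genes in no class. In ranks 26 to 100 ribosomal proteins were 32%, actin and tubulin genes 6.67%, lens membrane and junction genes 5.33% and crystallins 4%. In the next 400 genes the largest class was the respiratory chain with 7.5%, and 65.5% of genes were in no class. Lens transcription factors first appeared in the 500 genes after those, of which they were 6. A gene in several classes was counted in the first of them.

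**Figure D3:**
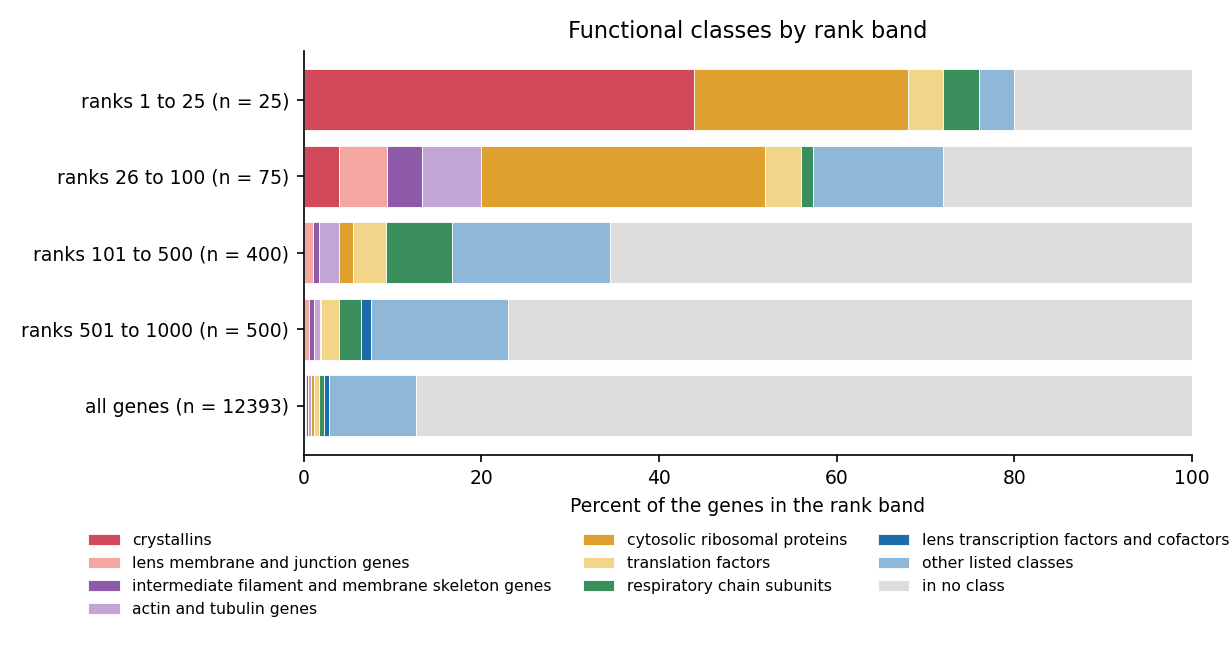
Percent of genes in each functional class for 4 successive rank bands and for all 12393 genes; each bar is 1 rank band and sums to 100%. The red crystallin block shrinks from 44% in the first 25 genes to 4% in ranks 26 to 100, and the gray block of genes in no class grows from 20% to 77% in the last band before all genes.

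Fiber cells feed themselves through channels and junctions, since no vessel enters the lens. Of 21 measured lens membrane and junction genes, 16 (76.2%) were above 100, with a median of 1326. Slc2a1, the glucose transporter Glut1, was the brightest, with 10267, 7467 and 9369, and it was also the brightest of 387 solute carriers and pumps. Ctnnb1, the beta-catenin of adherens junctions, had 6281, 6750 and 7588. Gja1, the connexin 43 of the lens epithelium, had a mean of 6216 ± 1056, whereas Gja3, the connexin 46 of fiber cells, had 291, 813 and 404, 1 of the genes that mouse 2 showed at more than 2-fold above both others. The neural cell adhesion molecule Ncam1 and N-cadherin, Cdh2, were at 4253 and 1970 as means, and E-cadherin, Cdh1, the epithelial cadherin, at 638.

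The 5 dimmest of these genes were Aqp1, Epha2, Aqp5, Tmem114 and Efna5, with mean signals of 87.8, 27.3, 18.3, 12.9 and 11.6. Epha2 and its ligand Efna5 are an Eph receptor and an ephrin tied to lens clarity. Efna5 and Tmem114 were not above the background bound. Each of the 5 was read by a single probe set.

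The cytoskeleton was represented at high signal. Of 25 intermediate filament and membrane skeleton genes, 18 (72%) were above 100. Vim, the vimentin of epithelium and young fibers, had the steady signals 8328, 8689 and 8785. Bfsp1, the beaded filament protein filensin, which is particular to lens fibers, had 5530, 9016 and 5518 and was highest in mouse 2, as most crystallins were. Sptbn1, a beta-spectrin of the membrane skeleton, had a mean of 6563 ± 487. Of 42 actin and tubulin genes, 36 (85.7%) were above 100, led by Cfl1, the actin-severing cofilin, at 9333 ± 645, Pfn2, a profilin that binds actin monomers, at 7180 ± 903, and Actb at 6551 ± 187.

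Genes with several probe sets often had very different signals from them. Actb had 2 probe sets, and the dimmer of them gave 2579, 5970 and 2576, so that mouse 2 was highest by more than 2-fold in that one, while the brighter gave 6360, 6557 and 6735 with mouse 3 highest. Cryab had 3, with means of 13387, 5427 and 9.54. Mip had a second probe set with 1554, 3160 and 1797. Of 2722 genes above 100 with more than 1 probe set, 1985 had at least 1 at or under 100, and the median log2 difference between brightest and dimmest was 3.70.

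Among other genes known to be enriched in lens, Fabp5, a fatty acid binding protein, had signals of 8798, 9741 and 9043. Dkk3, a secreted protein of the Dickkopf family, had 6811, 7032 and 8277, and Caprin2, an RNA-binding protein of fiber cells, 2424, 3544 and 3073. Of 8 such genes measured, 6 were above 100. Among those above background, mouse 2 was highest in 5 of 7 and mouse 1 in none, against 34.6% and 30.7% of all genes above background.

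Transcription factors of the lens were far dimmer than the crystallin genes, several of which they are known to control. Of 60 measured lens transcription factors and cofactors, 27 (45%) were above 100, near the 36.7% of all genes. Their median was 61.8, 7 were above 1000, and 15 were at or below the background bound. The 12 brightest were Jund, Hey1, Zeb1, Mycn, Pax6, Bach2, Jun, Cited2, Max, Mab21l2, Meis2 and Prox1. Jund, an AP-1 factor, had signals of 1951, 2085 and 2193 at rank 538. Hey1, a repressor in Notch signaling, had 2579, 1530 and 1596, and Zeb1, a zinc finger homeodomain factor, 1865, 1280 and 1770.

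Pax6, the paired domain and homeodomain factor that sets up the lens, had signals of 1169, 1760 and 963 and ranked 924th. Mouse 2 was again the highest. Its 4 other probe sets had mean signals of 163, 60.4, 26 and 11.1. With the mean of all 5 probe sets in place of the brightest, Pax6 ranked 3820th. Mycn, a Myc family factor, had 1348, 1524 and 1259, and Bach2, a leucine zipper factor that pairs with small Mafs, 1139, 1127 and 1512.

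Jun varied most among these 12, at 1448, 540 and 1268, lowest in mouse 2. Cited2, a coactivator needed for lens formation, had 1169, 730 and 1064, and Max, the partner of Myc proteins, 625, 675 and 921. Mab21l2, a factor of eye morphogenesis, had 757, 593 and 579. Meis2, a homeodomain factor upstream of Pax6, was steady at 479, 510 and 480. Prox1, the homeodomain factor of fiber differentiation, had 314, 634 and 477 and was lowest in mouse 1.

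Several factors with well-known lens roles lay near background on their probe sets; these were chosen after their values were seen. Foxe3, a forkhead factor of the lens epithelium, had signals of 12.9, 13.2 and 11.9. Pitx3 had 20.6, 24.5 and 24.6, Maf, the large Maf of fiber cells, 18.8, 18.7 and 13, and Sox1 8.84, 9.1 and 10.4. Each of the 4 was read by 1 probe set, and such a signal cannot show whether the transcript is low or the probes bind it poorly. Six3 and Sox2, by contrast, had mean signals of 402 and 400, and Hsf4, the heat shock factor of fiber cells, had 205, 609 and 193, again highest in mouse 2.

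Genes of capsule and matrix proteins ran from very bright to background. Of 92 such genes, 39 (42.4%) were above 100, near the 36.7% of all genes. Their median was 54 and 16 were at or below background, while a few were very bright. Sparc, a collagen-binding matrix protein of the capsule, had 8622, 8791 and 8125, Spon1, the secreted F-spondin, 6110, 5663 and 6458, and Nid1, the nidogen that links laminin to type IV collagen, 4286, 4927 and 6207. The type IV collagen chains Col4a1 and Col4a2, the main chains of most basement membranes, had means of 4364 and 3668.

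Of 159 growth factor signaling genes, 52 (32.7%) were above 100, near the 36.7% of all genes, and 63 were at or below background. The brightest 3 were secreted modulators. After Dkk3 came Sfrp1, a Wnt antagonist, with 6253, 6546 and 6969, and Igfbp7, which binds insulin-like growth factors, with 5018, 5800 and 4533. Tgfb2, the transforming growth factor of the eye, was at 4089, 2498 and 3537, and Spry2, an inhibitor of FGF signaling, at 2611 on average.

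Genes of energy metabolism were mostly well above background. Of 80 nuclear genes of respiratory chain subunits, 73 (91.2%) were above 100 and 49 above 1000. After Cox7a2, the brightest were Ndufa1 and Ndufb11, subunits of complex I, with means of 6065 ± 266 and 5332 ± 309. Of 24 glycolysis and sugar genes, 19 (79.2%) were above 100. Pgk1, phosphoglycerate kinase, had 5765, 4570 and 4748, Tkt, the transketolase of the pentose phosphate pathway, 4542, 5219 and 3449, and Aldoa, aldolase A, 3709, 4092 and 1607. Mouse 3 was more than 2-fold below both others for Aldoa.

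Few solute carriers and pumps were bright: 72 of 387 genes (18.6%) were above 100, below the 36.7% of all genes, and 182 were at or below background. After Slc2a1, the brightest were Atp2a2, the calcium pump of the endoplasmic reticulum, with 5318 ± 875, and Slc1a4, a neutral amino acid transporter, with 4076 ± 951. Lipid synthesis was led by the cholesterol pathway gene Hmgcs1. This HMG-CoA synthase had 10304, 9053 and 9207, the other bright genes being Scd2, a fatty acid desaturase, at 4733 ± 397 and Acly, ATP citrate lyase, at 2512 ± 555. Of 27 such genes, 17 (63%) were above 100.

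Defense against oxidation and protein damage was led by a few genes. Sod1 had signals of 11315, 9191 and 12453. Gstp1, a glutathione S-transferase, had 5184, 6322 and 4280, and Fth1, the heavy chain of ferritin, which stores iron, 3497, 4617 and 3793. Of 54 glutathione and antioxidant genes, 32 (59.3%) were above 100. Among 90 chaperones 56 (62.2%) were above 100, with Tcp1 and Cct2, subunits of the cytosolic chaperonin, at 6338 ± 300 and 4468 ± 309 and Hspa8, the constitutive Hsp70 of the cytosol, at 5949 ± 468.

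Protein turnover and organelle genes were broadly present. Of 81 proteasome and ubiquitin genes, 67 (82.7%) were above 100, the brightest being Psmb5, a catalytic subunit of the proteasome, at 4503 ± 122, Psmd6, a subunit of its regulatory particle, at 3673 ± 167, and Ube2d3, a ubiquitin-conjugating enzyme, at 3511 ± 578. Of 82 lysosome and organelle removal genes, 46 (56.1%) were above 100. They were led by Atp6v1g1, a subunit of the vacuolar proton pump, at 4522 ± 213, Capn3, the calpain whose lens form is Lp82, at 3025 ± 539, and Atp6ap2, an accessory protein of that pump, at 2565 ± 329.

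Nuclear proteins and RNA-binding proteins gave a mixed picture. Of 94 splicing and RNA-binding genes, 70 (74.5%) were above 100, with Hnrnpk at 7129 ± 769, Celf1 at 4589 ± 885 and Hnrnpu at 4381 ± 352. All 3 bind RNA, and Celf1 controls splicing and translation in fiber cells. Of 22 histone and chromatin protein genes, 12 (54.5%) were above 100, led by Hmgn3 and Hmgn1, which bind nucleosomes, at 6046 ± 1120 and 5958 ± 1180. Hmga2, an architectural chromatin protein typical of embryonic tissue, still had 3773, 2768 and 3843 after birth.

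**Figure D4:**
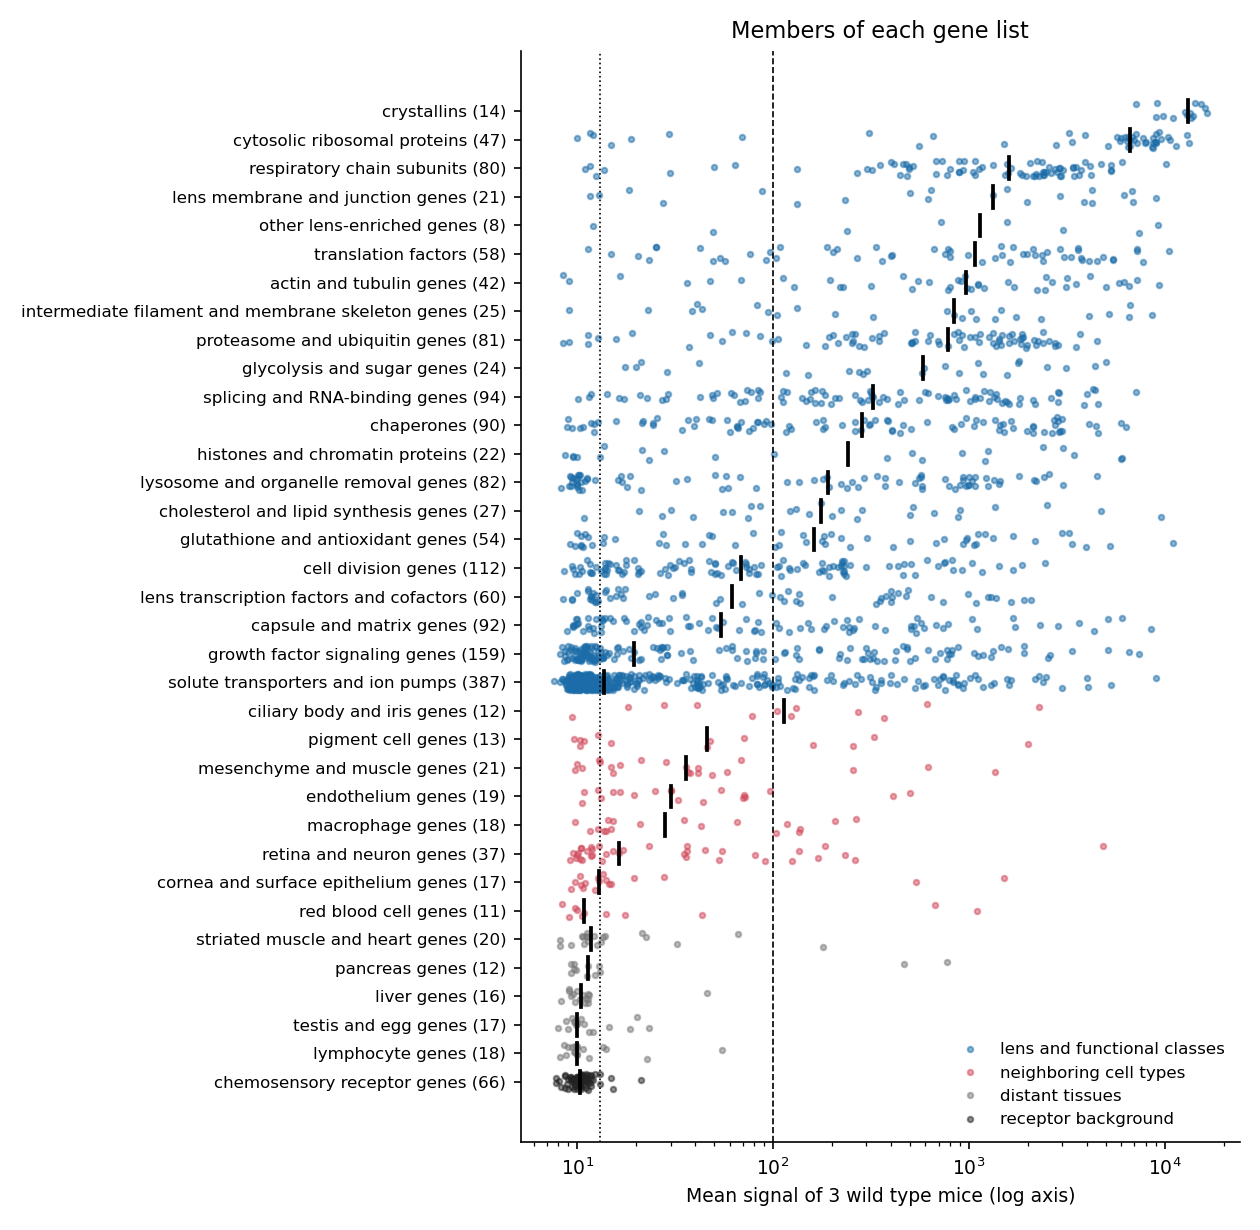
Mean signal over 3 wild type mice (log axis) of each member of the gene lists, which are given with their number of measured genes; each point is a gene, bars are list medians, the dashed line is a signal of 100 and the dotted line the receptor background of 13.1. Crystallins (median 13193) and ribosomal proteins (6636) stand far to the right, lists of distant tissues sit on the background with medians of 9.95 to 11.8, and neighboring cell types have medians from 10.8 for red blood cell genes to 114 for ciliary body and iris genes.

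Cell division genes varied between mice. Of 112 such genes 47 (42%) were above 100, near the 36.7% of all genes, and the median was 68.6. Ccnd1, cyclin D1, was steady at 2363, 2447 and 2566 by its brightest probe set, while another gave 289, 561 and 393. Ccnd2, cyclin D2, had 2247, 1328 and 2051, an order of mice that belongs to its brightest probe set. Most of its other probe sets put mouse 2 highest, such as one with 630, 848 and 620, though one with 61.1, 44.5 and 56 did not. Cdkn1c, the cell cycle inhibitor p57 of cells that enter fiber differentiation, had 1995, 1658 and 1415. Of the 99 above background, mouse 1 was highest for 67 (67.7%), against 30.7% of all genes above background. That bound is on the mean of the mice, so a gene could pass it through mouse 1 alone. The median of those 99 deviated by 0.25, -0.16 and -0.13 on the log2 scale in mice 1, 2 and 3. Over all 112 genes the deviations were 0.22, -0.14 and -0.08. Tpx2 and Nusap1, proteins of the mitotic spindle, were 2 of the 10 genes of largest range, with 404, 51.3 and 222 and with 387, 56.4 and 165.

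Mouse 1 was also highest for genes of vessels and macrophages, cell types found on the lens surface in the newborn. In bulk samples, fewer cells of a type cannot be told apart from less RNA per cell. Of 19 endothelium genes 2 (10.5%) were above 100, against 36.7% of all genes. Tek, an angiopoietin receptor, had 628, 421 and 445, and Flt1, a receptor of vascular endothelial growth factor, 914, 145 and 175. Mouse 1 was highest for 13 of the 16 above background, a bound on the mean of 3 mice that a gene could pass through mouse 1 alone. Over all 19 genes the median deviated by 0.52, -0.12 and -0.44 on the log2 scale in mice 1, 2 and 3. The list held 0.0526%, 0.0266% and 0.0215% of the summed signal in mice 1, 2 and 3. Its defining markers were near background, Pecam1 with 12.4, 9.65 and 9.62 and Cdh5 with 22.6, 12.8 and 14.4.

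Of 18 macrophage genes, 6 (33.3%) were above 100, near the 36.7% of all genes, and mouse 1 was highest for 13 of the 15 above background. Both bounds are on the mean of 3 mice, so a gene could pass through mouse 1 alone. Csf1r with 261, 61.3 and 91.1 and Laptm5 with 203, 32.9 and 71.7 passed 100 in this way. Over all 18 genes the median deviated by 0.54, -0.22 and -0.40 on the log2 scale in mice 1, 2 and 3. C1qb, a complement component, had 528, 114 and 149 and Mrc1, the mannose receptor, 412, 116 and 96.8. F13a1, a coagulation factor also made by macrophages, and Srgn, a proteoglycan of blood cell granules, were among the 10 genes of largest range, with 914, 137 and 146 and with 259, 104 and 37.5. The macrophage list held 0.0475%, 0.0182% and 0.0156% of the summed signal. Its markers Adgre1 and Itgam were below the background bound, with means of 11.6 and 9.69. Mouse 1 was the mouse with the lowest crystallin signals, and the part of these cell types in that difference was not tested.

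Other neighbors of the lens differed in signal, with list medians from 10.8 for red blood cell genes to 114 for ciliary body and iris genes, against 33.7 over all genes. Of 37 retina and neuron genes 7 (18.9%) were above 100, below the 36.7% of all genes. Glul, glutamine synthetase, had 4752, 4299 and 5436, whereas the next, Slc1a3, a glutamate transporter of glia, had 278, 203 and 304. The photoreceptor genes Crx, Nrl, Sag and Gnat1 had mean signals of 15.3, 13.4, 17.2 and 11.9. Pigment cell genes gave 4 of 13 (30.8%) above 100, near the 36.7% of all genes. Mitf, the master factor of melanocytes, was at 2166, 1620 and 2194 and Tyrp1, an enzyme of melanin synthesis, at 477, 223 and 280.

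Of 21 mesenchyme and muscle genes 3 (14.3%) were above 100, against 36.7% of all genes. Among them were Rgs5, a marker of pericytes, with 2269, 1152 and 644, and Pdgfra, a receptor for platelet-derived growth factor, with 603, 558 and 692. In the cornea and surface epithelium list 2 of 17 (11.8%) passed 100. They were Perp, a desmosome protein, at 1513 ± 264 and Cldn1, a claudin of tight junctions, at 534 ± 98.9, while the keratin Krt5 had a mean of 12.9. Of 12 ciliary body and iris genes 7 (58.3%, against 36.7% of all genes) were above 100. They were led by the zinc finger factors Zic1 and Zic2 with 2278 ± 137 and 610 ± 151. Blood was near background in this table, with 2 of 11 genes of the red cell list (18.2%) above 100. Those were Tfrc, the transferrin receptor of many dividing cells, at 1706, 607 and 993 and Hbb-b2, a beta globin, at 806, 685 and 517, the alpha globin Hba-a1 having a mean of 10.8.

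Nearly all genes of tissues with no contact to the lens lay near background. Of 16 liver, 17 testis and egg and 18 lymphocyte genes, 0 were above 100 in each list, and their medians were 10.5, 10 and 9.95. Their 2 brightest were Ttr, the carrier of thyroid hormone, and Cps1, the first enzyme of the urea cycle, for liver (46 and 11.5), Prm1, a sperm protamine, and Sycp3, a protein of meiotic chromosomes, for testis and egg (23.3 and 20.2), and Prf1, the perforin of killer cells, and Rag1, the recombinase of antigen receptors, for lymphocytes (54.9 and 22.6). Exceptions were in the pancreas and striated muscle lists. Cela1, an elastase, had 452, 1293 and 571 and Gcg, proglucagon, 254, 882 and 267, while the other 10 of 12 pancreas genes had means of at most 13.1. Actn2, a sarcomeric alpha-actinin, had 140, 257 and 145. All 3 were above 100 in every mouse and highest in mouse 2.

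Several genes of fast striated muscle were high in mouse 3 alone. Myl1, a light chain of fast muscle myosin, had signals of 8.26, 10.8 and 325 and was 1 of the 10 genes of largest range; it is not a member of the striated muscle list. Tnnc2, the troponin C of fast muscle, had 10.1, 10.6 and 179, and Tnnt3, a troponin T, 11, 12 and 73.9. These 3 genes were at background in mice 1 and 2. Of the 20 genes in the list, 8 were above background as means, of which 6 were highest in mouse 3 and 2, Actn2 and Actn3, in mouse 2. The median deviation of mouse 3 was 0.62 over those 8 and 0.01 over all 20. The other 12 were at or below background, and Ckm, the muscle creatine kinase, was among them at 12.6.

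The genes that mark sex separated the mice. Xist, the RNA of the inactive X chromosome, had signals of 709, 16.2 and 16.2, and the Y-linked genes Eif2s3y and Kdm5d 20.5, 1242 and 1000 and 12.1, 69.9 and 94.2. Mouse 1 thus read as female and mice 2 and 3 as male, while Uty, also on the Y, was faint in all, at 11.8, 16.4 and 24.4. Mouse 1 was therefore the only female and also the mouse with the highest median deviation for macrophage, endothelium, pigment cell, mesenchyme and muscle, glycolysis and cell division genes. Over members above background these medians were 0.77, 0.54, 0.53, 0.43, 0.27 and 0.25. That bound is on the mean of 3 mice, so a member could pass it through mouse 1 alone. Over all measured members the medians were 0.54, 0.52, 0.18, 0.41, 0.27 and 0.22. Sex and these differences cannot be told apart with 3 mice.

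**Figure D5:**
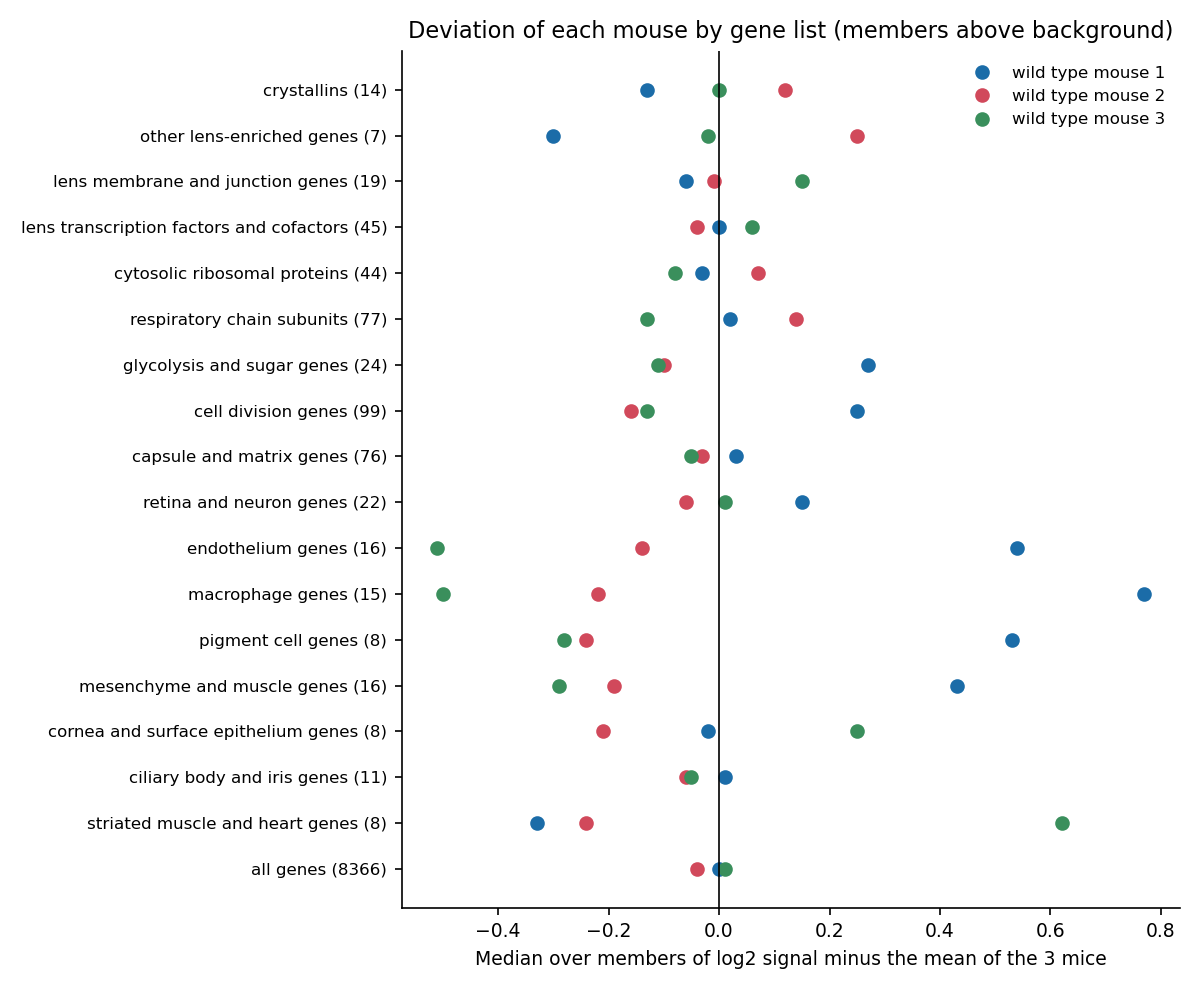
Deviation of each wild type mouse from the mean of the 3 mice, as the median over list members of log2 signal (members above background; their number in parentheses). Mouse 1 lies to the right for macrophage (0.77), endothelium (0.54), pigment cell (0.53), mesenchyme and muscle (0.43), glycolysis (0.27) and cell division genes (0.25). It lies to the left for crystallins (-0.13), mouse 3 lies to the right for striated muscle genes (0.62), and all genes together stay within 0.04 of zero. Over all measured members, not drawn here, the mouse 1 medians of the lists to its right were 0.54, 0.52, 0.18, 0.41, 0.27 and 0.22 in that order. For striated muscle genes the mouse 3 median was then 0.01.

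The spread between mice set the precision of each level. The median SD of log2 signal was 0.20 for the 1193 genes above 1000, 0.30 for the 3356 from 100 to 1000, 0.29 for the 3817 from background to 100 and 0.13 for the 4027 at or below background. Mean signals of that last band lie between 7.22 and the bound of 13.1, so its small SD does not show a precise level of RNA. A range of more than 2-fold was seen for 48 genes (4.02%) above 1000 and for 580 (17.3%) of those from 100 to 1000. By class, the median SD was 0.13 for crystallins and 0.12 for ribosomal proteins, against 0.64 for endothelium, 0.68 for macrophage and 0.70 for mesenchyme and muscle genes. The 10 genes above 100 of largest range were Eif2s3y, Xist, Myl1, F13a1, Tpx2, Camkk2, Syn2, Pde4b, Srgn and Nusap1. Camkk2, a kinase that activates calmodulin kinases, and Pde4b, a phosphodiesterase of cyclic AMP, were highest in mouse 1 and lowest in mouse 2, with 244, 31.5 and 129 and with 273, 38.4 and 104. Syn2, a synapsin, was lowest in mouse 1, with 65.1, 290 and 416.

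Genes often used as references lay at very different signals. Actb and Ywhaz, a 14-3-3 protein, had means of 6551 ± 187 and 4418 ± 521. B2m, the light chain of class I molecules, had 1398, 898 and 620 and Sdha, a subunit of complex II, 1218, 655 and 798. The dimmer probe set of Sdha gave 488, 840 and 484, so its order of mice depends on the probe set. Hprt, of purine salvage, and Gusb, a lysosomal glucuronidase, had means of 598 ± 103 and 438 ± 92.9. Tbp, the TATA-binding protein itself, was just under the bound of 100, at 88, 71.8 and 136.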

How the data were processed

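Per the labels and methods, total RNA of both lenses of a mouse was amplified, labeled with biotin and hybridized to Affymetrix mouse arrays. The authors processed the scans with RMA (robust multichip average; version not given in the sources used here), and the deposited intensity of each probe set is its result on a linear scale. RMA subtracts background, equalizes the arrays and summarizes the probes. The table carries no count or depth, so the number of arrays limits the precision. Of 22690 probe sets, 64 controls were left out. The 3 columns of heterozygous samples were not used. The array version named in the methods has more probe sets than the table, and probe sets outside the table are not analysed here.

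Of the 20380 probe sets with 1 symbol, 20351 were matched by Entrez number to RefSeq (GRCm38.p6) and took its symbol. Those with several symbols (691) or none (1555) stand for no gene. The brightest probe set by mean log2 signal stood for a gene. Levels are means ± SD over 3 mice, ranks follow mean log2 signal, and shares are of summed linear signal. With 1 group there is no contrast and no test. Python 3.11.15, pandas 2.3.3 and matplotlib 3.10.9 were used, and the steps were tested on simulated data.

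Members and gene lists were chosen with earlier results of these data known. After the values were seen, Rps3a1 was added to the ribosomal list, and Cdc42 genes, Hspg2 and Gje1 were taken off lists they did not belong to. The named genes are the 25 brightest, the markers, all crystallins, the 3 brightest of each class and 2 of each list of other cell types, 12 transcription factors, reference and sex-linked genes, the 10 of largest range and the 5 dimmest crystallin and membrane genes. Further members were added as examples after their values were seen. TATATA, and any listed start of a gene, were added to the promoter search after seeing the data. Alternatives were other ways to join probe sets, quantile normalization, centring, other bounds and leaving out each mouse. Protein lengths were not computed.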

Additional observations from a re-analysis of the deposited data

How the results depend on the processing

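No paired analysis was possible because only 1 group is described and its results come from no test. The number of genes above 100 and above the receptor background stayed within 1.5 times the value given under every alternative. With each mouse left out, 8060 to 8709 genes were above background, 30 or 31 ribosomal protein genes were among the 100 brightest, and the shares of the summed signal were 18.2% to 18.8% for the 100 brightest, 3.62% to 3.94% for crystallins and 5.78% to 6.35% for ribosomal proteins. The number of crystallins among the 25 brightest was 10 to 11.

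How probe sets are joined moved the shares. With the median of all probe sets of a gene, the 100 brightest genes held 24.8%, crystallins 6.06% and ribosomal proteins 7.11%. With the mean, the 100 brightest held 25.3% and crystallins 6.32%. Without the suffixes _x_at, _s_at and _a_at the 100 brightest held 21.4%, crystallins 4.88% and ribosomal proteins 1.61%, with 6 ribosomal genes among the 100 brightest. Cryab fell from rank 7 to rank 9607 there, since its other probe set was at 9.54. Quantile normalization left all 7 counts and shares, and 184 list medians, percents, deviations and ranks, within the spread of the mice.

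RMA values of dim genes mix signal and background, the order of the brightest genes depends on their probes, and with 3 mice no difference between them can be tested.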

Other observations

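Many bright probe sets stand for no single gene and so are outside the ranking. Of the 100 brightest probe sets, 51 carry 1 symbol, 40 several and 9 none, and 38 of the 40 include a ribosomal protein gene. Among those without a symbol, 83 had a mean signal above 1000. The 2 brightest of these had signals of 11956, 12280 and 11909 and of 11654, 11505 and 11833 in mice 1, 2 and 3. Their means of 12048 and 11664 lie between those of the genes at ranks 13 and 14.

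Mouse 2 was more than 2-fold above both other mice for 112 of the 4549 genes above 100 (2.46%), among them the connexin gene Gja3, the heat shock factor gene Hsf4, the eye morphogenesis gene Mab21l1, the matrix enzyme gene Loxl1 and Id2, an inhibitor of helix-loop-helix factors. Their signals were 291, 813 and 404 for Gja3, 205, 609 and 193 for Hsf4, 106, 214 and 72.8 for Mab21l1, 142, 409 and 133 for Loxl1 and 1901, 4038 and 1662 for Id2. The bound of 100 is on the mean of the mice, so some of the 112 could pass it through mouse 2 alone. Mouse 2 was more than 2-fold below both for 9 of 47 cell division genes above 100 (19.1%, against 1.74% of all genes above 100). They include Rrm2, a subunit of ribonucleotide reductase, with 1591, 434 and 1096. The lamins Lmnb1 (1312, 403 and 1042) and Lmnb2 (284, 90.5 and 246) were also more than 2-fold lower in mouse 2. These genes were picked after their values were seen, and their relation to the lower 3′/5′ ratios of mouse 2 was not tested.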
